A study of Mus musculus with 32 samples.

Results

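The comparison described here sets synovium of mice labelled MMS D7 against synovium of mice labelled Control. Its members are all 1178 genes of the deposited synovium expression table, read in 6 of the series' 32 samples: 3 MMS D7 samples and 3 Control samples, all from C57BL/6 mice. MMS is the name of the mouse model that the series studies, in synovium and in cartilage, and the labels spell out neither MMS nor the unit of the day number. Synovium from MMS D3 and MMS D14 mice, with 3 samples each, is used to place MMS D7 in the course of the model. No genotype, transgene, age, operation or drug is attached to either group in the labels, and Control is described by that word alone. Values are FPKM (sequenced fragments of a gene, scaled by its length and by the library's mapped fragments), so levels can be set side by side between genes.

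The synovium is the soft tissue that encloses a joint. A thin lining of fibroblasts and macrophages faces the joint space, makes hyaluronan and lubricating proteins and clears debris, and beneath it lies a sublining of loose connective tissue with vessels, nerves and, in several joints, a large share of white fat. In injured or arthritic joints the sublining is known to thicken and to become fibrous. Adipocytes store fatty acids as triglyceride and release adipokines, fibroblasts secrete collagen and the enzymes that fold, cross-link and cut it, and resident macrophages patrol both layers.

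Several facts of the table bear on what follows. Its genes were selected: the MMS D14 mean was at least 1.5-fold above or below the Control mean in 1155 genes (98%), while MMS D7 and Control differed by that much in 972 (82.5%), so the share of genes that differ says nothing about the transcriptome as a whole. Sequencing depth is unknown. Summed over the table, FPKM came to between 79761.7 and 88268.1 in the MMS D7 libraries and between 114194.4 and 132996 in the Control libraries. Replicate 3 of both groups belongs to 5 libraries of the 18 that stand apart in a set of genes, with Gm2023 under 5 FPKM, against at least 12.59 FPKM in the other 13 libraries. Control replicate 2 stands apart as well, with skeletal muscle and interferon-inducible transcripts above those of the other Control samples. No label says whether the replicates are separate mice, and the p-values therefore measure only the spread between these samples.

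At MMS D7 the synovium carried more transcripts for fibrous matrix and for cell division, and fewer for fat. Of 1178 genes tested, 284 (24.1%) were higher and 726 (61.6%) were lower in MMS D7 than in Control, 85.7% in all. The test was limma on log2(FPKM + 1), with all 18 synovium libraries sharing 1 estimate of the spread and Benjamini-Hochberg adjusted p under 0.05; changes are differences between group means on that scale and understate the change of genes at low FPKM. Changes of at least 1 on the log2 scale were called in 197 genes upward (16.7%) and in 277 downward (23.5%). The median change over all genes was -0.65. Centring each library on its own median raised every change by 0.28 and gave 308 genes higher and 553 lower. In bulk tissue, a lower level can come from fewer cells of a type or from less RNA of that gene per cell, and these cannot be told apart.

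**Figure D1:**
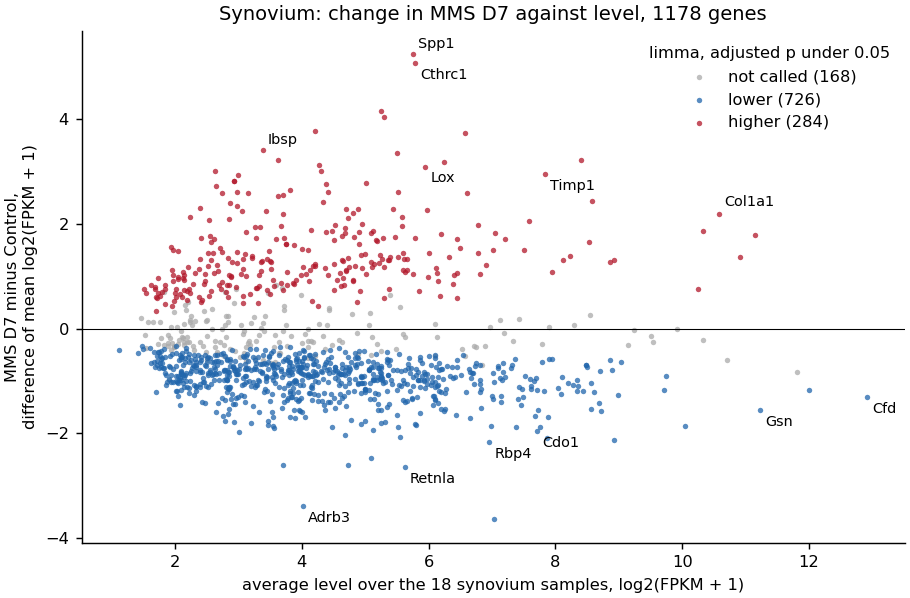
Each point is 1 of the 1178 genes, with its average level over the 18 synovium libraries on the horizontal axis, in log2(FPKM + 1), and its change in MMS D7 minus Control on the vertical axis, in log2 units. Coloured points are the 284 genes called higher and the 726 called lower, and grey points the 168 not called; the upward changes reach further from 0 (5.24, Spp1) than the downward ones.

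The spread between the 3 libraries of a group was small beside most of these differences. The median SD over genes was 0.188 in MMS D7 and 0.181 in Control, on the log2(FPKM + 1) scale. All 3 MMS D7 libraries lay above all 3 Control libraries in 292 genes (24.8%) and below them in 728 (61.8%), 86.6% in all.

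**Figure D2:**
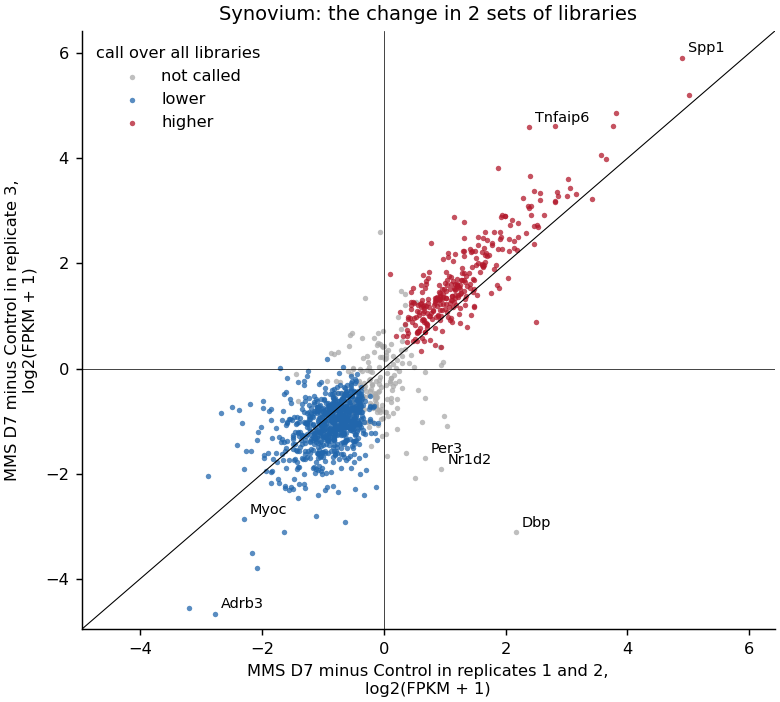
Each point is a gene, with the MMS D7 minus Control change in replicates 1 and 2 on the horizontal axis and in replicate 3, the libraries with Gm2023 under 5 FPKM, on the vertical axis, both in log2 units. All 284 genes called higher fall above 0 on both axes, and 723 of the 726 called lower fall below 0 on both. The calls were made with these same libraries, so the shared sign is not an independent check.

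Fibrillar collagen rose. Col1a1, the main chain of type I collagen (chr11:94936224-94953042, plus strand of GRCm38), had 2851, 2368 and 2827 FPKM in MMS D7, against 625, 624 and 509.9 FPKM in Control. The lowest MMS D7 library stood well above the highest Control library (log2 change 2.19, SE 0.269; limma adjusted p = 5.59e-06). Col3a1, the chain of type III collagen that is laid down early in repair, had 3444, 3217 and 3989 FPKM in MMS D7, against 1099, 998 and 976 FPKM in Control, again with no overlap (adjusted p = 4.01e-07). Col5a2, a chain of the type V collagen that sets fibril width, had 308, 274 and 397 FPKM in MMS D7 and 75.8, 73.96 and 81.4 FPKM in Control, and its change of 2.05 had the smallest adjusted p of the collagen chains (1.09e-07). Among 13 measured collagen chains, 12 were higher, beside 24.1% of all genes, and 1 was lower. Their median change was 1.45, against -0.65 over all genes. The chain that fell was Col4a5, a basement membrane collagen, at 3.79 ± 1.33 FPKM in MMS D7, against 8.76 ± 0.9395 FPKM in Control (± SD over 3 libraries, as in all such values below). Col5a3 was the weakest of the rises, at 0.59 with adjusted p = 0.0401, and it was not called without MMS D7 replicate 3 (adjusted p = 0.191). Summed over the 13 chains, levels ran from 9366 to 11602 FPKM in MMS D7 and 2761 to 3201 FPKM in Control.

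The enzymes that finish collagen rose with it. Lox, lysyl oxidase, which oxidises lysines so that collagen and elastin fibres cross-link, had 149.9, 121 and 199 FPKM in MMS D7, against 15.9, 15.99 and 19.6 FPKM in Control. Every MMS D7 library was several-fold above every Control library (log2 change 3.096, SE 0.189; limma adjusted p = 3.89e-09). P4ha3, a subunit of the prolyl hydroxylase that stabilises the triple helix, had 27.5, 32.8 and 31.99 FPKM in MMS D7, against 2.77, 2.18 and 2.3 FPKM in Control. Its Control values lay close to the bottom of the table, and its MMS D7 values did not come near them (log2 change 3.22, adjusted p = 1.72e-07). Fkbp11, a prolyl isomerase of the endoplasmic reticulum, averaged 29.1 ± 1.74 FPKM in MMS D7 against 3.89 ± 0.982 FPKM in Control, and Plod2, a lysyl hydroxylase, averaged 44.7 ± 1.78 FPKM in MMS D7 against 11.8 ± 0.969 FPKM in Control. Of 14 measured genes for collagen folding, trimming and cross-linking, 12 rose, beside 24.1% of all genes. Pcolce2, an enhancer of procollagen trimming, fell to 46.97 FPKM in MMS D7, against 97.3 FPKM in Control. Creb3l1, a transcription factor of the secretory pathway, was at 49.7 ± 5.17 FPKM in MMS D7 against 32.97 ± 11.5 FPKM in Control and was not called (adjusted p = 0.202).

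Beside 24.1% of all genes, all 8 measured genes of microfibrils and elastic fibres were higher, with a median change of 1.49. Mfap4, a protein of elastic fibres, showed the largest of them, 3.36. Fbln2, fibulin 2, had 174, 156 and 233 FPKM in MMS D7 and 53.6, 48.5 and 37.7 FPKM in Control, and Emilin1, which sits between elastin and microfibrils, had 50.5, 44.9 and 74.05 FPKM in MMS D7 and 15.4, 15.9 and 12.3 FPKM in Control. Fbn1, fibrillin 1 and the main protein of microfibrils, had the second smallest change of the list, 1.13 (adjusted p = 0.000155), after Ltbp1, a latent TGF-beta binding protein, at 0.97. Small leucine-rich proteoglycans decorate collagen fibrils, and 4 of 5 measured rose, beside 24.1% of all genes. Lum, lumican, had 729, 532 and 582 FPKM in MMS D7, against 112, 111 and 111 FPKM in Control, the smallest adjusted p of the list (log2 change 2.44, adjusted p = 1.31e-07). Fmod, fibromodulin, which is prominent in tendon, had 78.2, 51.4 and 59.7 FPKM in MMS D7, against 19.6, 6.39 and 6.26 FPKM in Control; Control replicate 1 stood above the other Control libraries and below every MMS D7 library (adjusted p = 0.000206). Podn, podocan, went the other way, at 61.1 ± 16.7 FPKM in MMS D7 against 87.4 ± 14.6 FPKM in Control (log2 change -0.53, adjusted p = 0.0195), and with centred libraries it was not called (adjusted p = 0.206).

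Matricellular proteins signal to cells from within the matrix and are known to be made after injury. Of 16 measured, 12 were higher and 1 was lower, beside 24.1% and 61.6% of all genes. Thbs4, thrombospondin 4, a protein of tendon and muscle attachment (chr13:92751590-92794818, minus strand of GRCm38), had 132, 119 and 220.4 FPKM in MMS D7, against 12.6, 15.8 and 19.4 FPKM in Control, without overlap (log2 change 3.19, SE 0.236; adjusted p = 4.87e-08). Cilp, cartilage intermediate layer protein, had 147, 178 and 171 FPKM in MMS D7, against 32.8, 26.6 and 21.8 FPKM in Control (log2 change 2.58, adjusted p = 1.09e-07). Comp, cartilage oligomeric matrix protein, which binds collagen in cartilage and tendon, had 485, 484 and 359.9 FPKM in MMS D7 and 171, 175 and 156 FPKM in Control (log2 change 1.39, adjusted p = 3.28e-05). Thbs2 and Thbs3 rose by 1.37 and 1.44, while Thbs1 averaged 11.5 ± 5.74 FPKM in MMS D7 against 5.86 ± 1.24 FPKM in Control with overlapping groups and was not called (adjusted p = 0.0946). The pair of TGF-beta and YAP responsive genes on this list differed from each other: Cyr61 was called higher at 1.04 (adjusted p = 0.04301, and 0.143 without Control replicate 1), and Ctgf stood at 445 ± 77.3 FPKM in MMS D7 against 553 ± 59.7 FPKM in Control and was not called (adjusted p = 0.08501). Tnxb, a tenascin of connective tissue, was called lower (-0.73, adjusted p = 0.01198), with groups that overlapped, and was not called with centred libraries (adjusted p = 0.102).

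Hyaluronan is the long sugar polymer that gives joint fluid its viscosity. Tnfaip6, whose protein TSG-6 loads heavy chains onto hyaluronan during inflammation, had 26.2, 23.3 and 101 FPKM in MMS D7, against 3.65, 4.19 and 3.23 FPKM in Control. MMS D7 replicate 3 was the highest by far, and the lowest of the group was still above all Control libraries (log2 change 3.12, SE 0.639; limma adjusted p = 0.000333). Sdc1, syndecan 1, a heparan sulphate proteoglycan of the cell surface, had 46.9, 48.9 and 60.4 FPKM in MMS D7, against 15.1, 16.3 and 14.3 FPKM in Control (adjusted p = 2.91e-07). Gpc1, glypican 1, and Vcan, versican, rose by 1.85 and 1.29, and Cd44, the hyaluronan receptor, by 1.06. Hyal1, a hyaluronidase, and Lyve1, a hyaluronan receptor of lymphatic vessels and of resident macrophages, fell by 1.01 and 0.92. Has2, a hyaluronan synthase, was at 2.82 ± 0.556 FPKM in MMS D7 against 2.48 ± 0.138 FPKM in Control and did not pass the test (adjusted p = 0.654).

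Matrix-cutting enzymes rose in 10 of 13 cases, beside 24.1% of all genes, and none of the 13 fell. Mmp3, stromelysin 1, which cuts proteoglycans and activates other proteases, had 46.8, 21.5 and 43.4 FPKM in MMS D7, against 8.8, 5.99 and 4.96 FPKM in Control, with all 3 MMS D7 values above all 3 Control values (log2 change 2.29, SE 0.306; adjusted p = 9.54e-06). Mmp2, a gelatinase, had 422, 310.1 and 392 FPKM in MMS D7 and 126, 127 and 99.4 FPKM in Control, and Plat, tissue plasminogen activator, averaged 20.8 ± 6.07 FPKM in MMS D7 against 4.44 ± 0.0839 FPKM in Control. Ctsk, cathepsin K, a collagen-cleaving protease of osteoclasts that fibroblasts make too, had 227, 194 and 254 FPKM in MMS D7 and 64.1, 80.1 and 95.3 FPKM in Control (adjusted p = 1.67e-05). Adamts5, an aggrecan-cutting enzyme, was at 16.99 ± 0.876 FPKM in MMS D7 against 19.04 ± 6.81 FPKM in Control, with overlapping groups (adjusted p = 0.685). Their inhibitors split. Timp1, an inhibitor of metalloproteases that injury is known to induce (chrX:20870166-20874735, plus strand of GRCm38), had 597, 565 and 493 FPKM in MMS D7, against 71.3, 93.3 and 52.8 FPKM in Control (log2 change 2.94, adjusted p = 8.42e-06). Timp3 and Timp4, inhibitors of the same family, fell by 1.09 and 1.06 (adjusted p = 0.00275 and 0.00274).

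**Figure D3:**
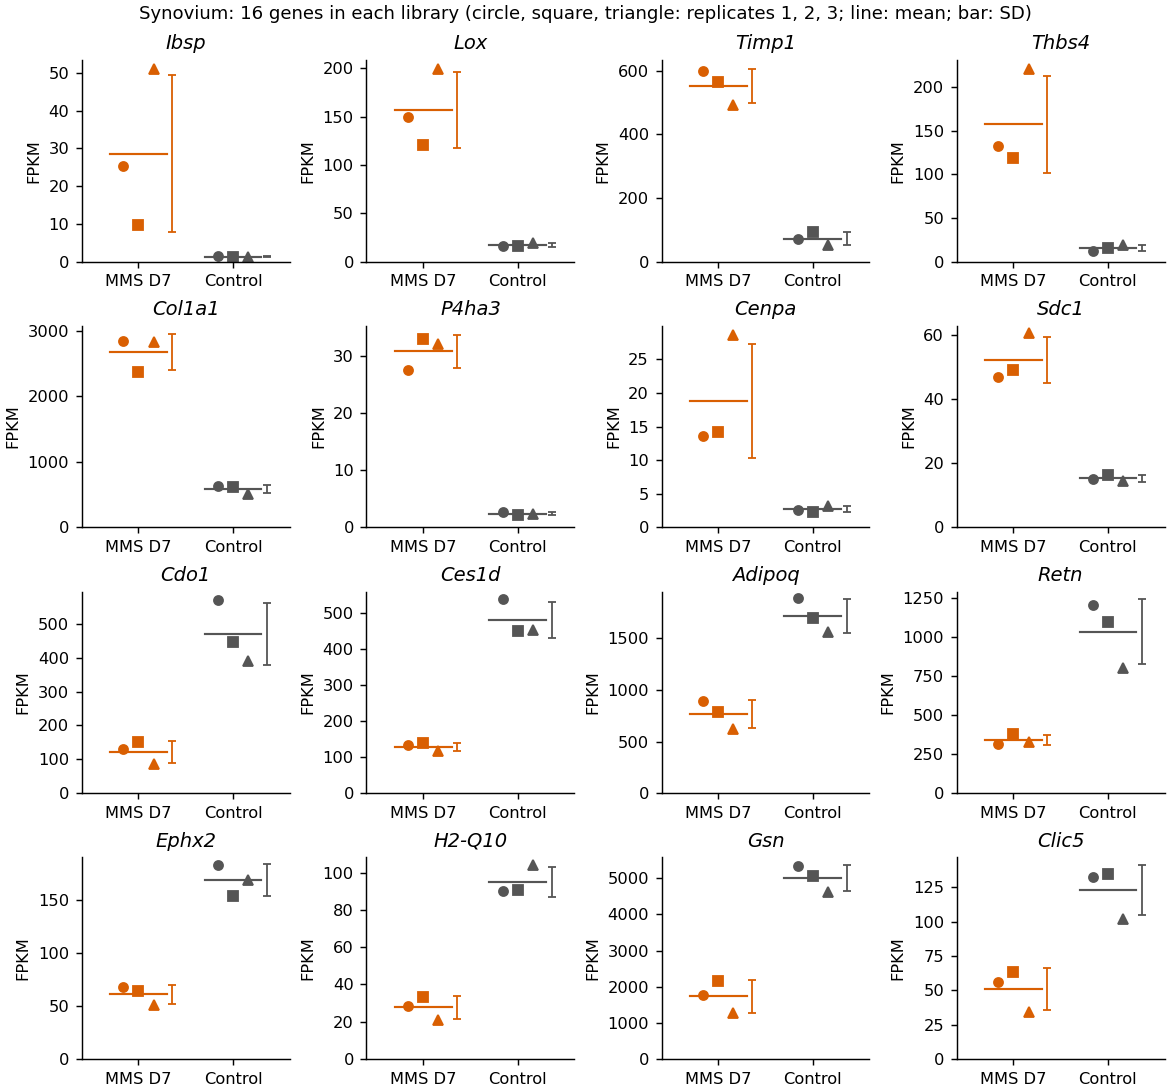
FPKM in each library for 16 genes, with the MMS D7 libraries on the left of each panel and the Control libraries on the right; horizontal lines are means and bars are SDs over 3 libraries. In the upper 8 panels every MMS D7 point lies above every Control point (Lox, lowest 121 against at most 19.6 FPKM), and in the lower 8 every MMS D7 point lies below.

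Genes of the dividing cell rose without exception among those measured. All 26 genes of mitosis and the cell cycle and all 12 of DNA replication and nucleotide supply were higher in MMS D7, beside 24.1% of all genes, with median changes of 2.11 and 1.07; Tk1 is on both lists. Cenpa, the histone that marks the centromere, had 13.7, 14.1 and 28.7 FPKM in MMS D7, against 2.59, 2.33 and 3.2 FPKM in Control. The groups were far apart on a low Control level (log2 change 2.34, SE 0.241; limma adjusted p = 1.10e-06). Cks2, a small partner of cyclin-dependent kinases, had 16.9, 19.6 and 23.9 FPKM in MMS D7, against 1.97, 2.78 and 2.76 FPKM in Control (adjusted p = 5.14e-06). Tk1, thymidine kinase, which supplies a DNA precursor in S phase, had 13.5, 16.6 and 30.3 FPKM in MMS D7 and 1.95, 2.08 and 1.48 FPKM in Control, and Rrm2, the regulated subunit of ribonucleotide reductase, had 7.68, 8.94 and 14.1 FPKM in MMS D7 and 1.46, 1.87 and 1.5 FPKM in Control. Birc5, survivin, Cdc20, an activator of the anaphase-promoting complex, and Plk1, a mitotic kinase, rose by 2.61, 2.73 and 2.31. Smaller rises came from replication genes such as Mcm2, part of the replicative helicase (1.19), Cdc45, its cofactor (0.74), and Prim1, a primase subunit (0.61, adjusted p = 0.0101, and 0.0577 without MMS D7 replicate 3). Summed over the 26 mitosis genes, levels ran from 321 to 443 FPKM in MMS D7 and 71.6 to 75.4 FPKM in Control.

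Of 5 histone genes, 3 were higher and 2 were lower, beside 24.1% and 61.6% of all genes. Hist1h2ap, a replication-dependent H2A gene, was higher, at 78.05 ± 6.63 FPKM in MMS D7 against 11.1 ± 4.71 FPKM in Control. Hist1h2ao, another of that kind, was higher as well, at 45.02 ± 2.24 FPKM in MMS D7 against 6.43 ± 4.08 FPKM in Control, and reads of such near-identical genes may have been divided among copies. H2afx, which encodes the variant H2AX that is phosphorylated at DNA breaks, rose by 0.85 (adjusted p = 0.0226), a call not made without Control replicate 3 (adjusted p = 0.112) or without MMS D7 replicate 3. Hist2h2aa1, another H2A gene, and Hist2h2be, an H2B gene, fell by 1.56 and 0.95 (adjusted p = 3.12e-05 and 1.75e-05).

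Promoters of mitotic genes are known to carry CCAAT boxes, bound by the factor NF-Y, and the cell-cycle homology element TTTGAA, bound by the DREAM complex. The 150 bases before the start of 4 of the genes are printed because their transcripts rose together and had the smallest adjusted p among those with such a motif (RefSeq, GRCm38.p6). Each is written 5′ to 3′ on the gene's own strand and ends next to the start; capitals mark CCAAT or its reverse ATTGG, and TTTGAA or its reverse TTCAAA. The windows are chr5:30666736-30666885 on the plus strand for Cenpa, chr13:51645082-51645231 on the plus strand for Cks2, chr7:127042421-127042570 on the minus strand for Kif22, a kinesin of the mitotic spindle, and chr9:70421555-70421704 on the minus strand for Ccnb2, cyclin B2.
Cenpa: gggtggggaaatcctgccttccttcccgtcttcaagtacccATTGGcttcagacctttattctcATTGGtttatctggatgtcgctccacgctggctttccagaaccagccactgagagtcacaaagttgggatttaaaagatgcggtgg
Cks2: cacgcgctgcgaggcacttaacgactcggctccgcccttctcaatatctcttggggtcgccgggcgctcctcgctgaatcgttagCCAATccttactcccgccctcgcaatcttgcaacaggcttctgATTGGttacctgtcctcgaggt
Kif22: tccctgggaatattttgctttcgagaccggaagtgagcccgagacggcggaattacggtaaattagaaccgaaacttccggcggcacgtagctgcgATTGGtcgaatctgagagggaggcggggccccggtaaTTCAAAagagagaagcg
Ccnb2: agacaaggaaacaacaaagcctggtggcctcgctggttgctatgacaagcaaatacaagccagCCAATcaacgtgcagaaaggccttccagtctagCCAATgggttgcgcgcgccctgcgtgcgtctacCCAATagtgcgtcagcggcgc
Ccnb2 holds 3 CCAAT boxes in this window, Cenpa and Cks2 hold 2 each, and Kif22 holds 1 together with a TTTGAA element near the start.

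Searched on both strands over 250 bases before the start, CCAAT was present in 15 of the 22 mitosis genes with an entry (68.2%), against 34.5% of 27025 mouse promoters and 39.1% of the 873 table genes with an entry. Lists that did not rise held it often as well: 7 of 9 clock genes (77.8%) and 17 of 32 genes of fatty acid oxidation and mitochondria (53.1%), beside 6 of 10 DNA replication genes. TTTGAA was present in 8 of 22 (36.4%), against 16.3% of all promoters and 10.9% of table genes. The E2F motifs TTTGGCGC and TTTCCCGC were found in 1 and 0 of the 22, against 0.4% and 0.9% of all promoters. No capital stretch in the printed windows belongs to both motifs. A match describes letters, and binding of the factors was not measured.

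Of 9 fibroblast and tendon genes, 6 were higher, 1 was lower and 2 were not called, beside 24.1% of all genes higher and 61.6% lower. Scx, scleraxis, the transcription factor of tendon progenitors, had 12.02, 13.02 and 19.3 FPKM in MMS D7, against 1.01, 1.61 and 1 FPKM in Control. It was barely above the lowest values of the table in Control and several-fold above them in MMS D7 (log2 change 2.82, SE 0.255; limma adjusted p = 2.63e-07). Runx1, a transcription factor of blood and skeletal progenitors, had 24.9, 22.3 and 27.4 FPKM in MMS D7, against 3.11, 3.84 and 3.31 FPKM in Control (adjusted p = 1.08e-07). Cdh11, cadherin 11, which joins synovial fibroblasts to each other, had 14.3, 11.2 and 18.98 FPKM in MMS D7 and 2.32, 2.28 and 5.01 FPKM in Control, and Prrx2, a homeobox factor of limb mesenchyme, averaged 42.2 ± 2.58 FPKM in MMS D7 against 11.8 ± 4.29 FPKM in Control. The 1 lower gene was Gsn, gelsolin, an actin-severing protein that resting fibroblasts make, with 1763, 2169 and 1262 FPKM in MMS D7, against 5334, 5071 and 4614 FPKM in Control (log2 change -1.56, adjusted p = 7.82e-06). Tnmd, tenomodulin, a marker of mature tendon, stood at 17.9 ± 0.951 FPKM in MMS D7 against 13.5 ± 1.72 FPKM in Control and was not called (adjusted p = 0.0761), nor was Sfrp4, a secreted Wnt binder, at 55.6 ± 8.01 FPKM in MMS D7 against 62.8 ± 13.2 FPKM in Control. Summed over the 9 genes, levels ran from 1563 to 2437 FPKM in MMS D7 and 4744 to 5475 FPKM in Control, the larger part of it Gsn.

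Genes for contacts with the matrix and for the cytoskeleton were mostly higher, beside 24.1% of all genes. Of 10 adhesion and receptor genes 7 rose, among them Itgbl1, an integrin-like secreted protein (33.3 ± 5.57 FPKM in MMS D7 against 9.12 ± 2.48 FPKM in Control), Itga5, the fibronectin receptor subunit (57.97 ± 5.33 FPKM in MMS D7 against 27.1 ± 3.19 FPKM in Control), and Itga11, a collagen receptor subunit (14.7 ± 1.996 FPKM in MMS D7 against 7.397 ± 2.25 FPKM in Control). Of 12 cytoskeletal genes 10 rose. Cnn3, calponin 3, had 102, 93.8 and 135 FPKM in MMS D7 and 47.6, 54.6 and 53.1 FPKM in Control (adjusted p = 6.86e-06), and Actn1, alpha-actinin 1, had 50.3, 47.5 and 58.4 FPKM in MMS D7 and 18.6, 21.6 and 21.3 FPKM in Control (adjusted p = 3.51e-05). The smooth muscle genes gave no such picture: Actn1 was the 1 rise among 5, Lmod1, leiomodin 1, was called lower (-0.52, adjusted p = 0.0103, and 0.173 with centred libraries), and Actg2, Kcnj8 and Tpm1 did not pass the test.

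Secreted signals included rises and falls. Of 12 Wnt pathway genes, 8 rose, beside 24.1% of all genes: Dkk3, a secreted member of the dickkopf family, had 42.4, 28.9 and 56.4 FPKM in MMS D7, against 8.45, 6.82 and 7.64 FPKM in Control, with wide separation (log2 change 2.29, adjusted p = 5.96e-07), and the secreted Wnt binders Sfrp1 and Sfrp2 rose by 1.62 and 1.73. Receptor genes Fzd1, Fzd2, Fzd8 and Ror2 rose by 0.87, 1.01, 0.59 and 1.02, and Apcdd1, an inhibitor at the receptor, fell by 0.87. Sfrp5, another Wnt binder, was called lower (-0.47, adjusted p = 0.0419), a call not made with centred libraries (adjusted p = 0.415). Among growth factors 4 of 13 rose and 8 fell, shares near the 24.1% and 61.6% of all genes. Vegfa, a vascular growth factor, had 52.4, 51.8 and 42.5 FPKM in MMS D7 and 94.3, 90 and 108 FPKM in Control. Vegfb, of the same family, had 49.5, 48.2 and 28.7 FPKM in MMS D7 and 119, 109 and 89.1 FPKM in Control. Both were lower in every MMS D7 library than in any Control library (adjusted p = 6.29e-05 for Vegfa and 3.56e-05 for Vegfb). Angpt1, angiopoietin 1, and Fgf10, a fibroblast growth factor, fell by 1.08 and 1.04. Mdk, midkine, Ptn, pleiotrophin, and Angptl1, an angiopoietin-like protein, rose by 1.14, 0.82 and 1.04.

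The measured genes of the TGF-beta and BMP family were few and mixed. Fstl1, follistatin-like 1, had 329, 344 and 502 FPKM in MMS D7 and 159, 161 and 146 FPKM in Control and was higher (adjusted p = 8.53e-06). Fst, follistatin, which binds activins, had 8.11, 6.6 and 9.62 FPKM in MMS D7 and 28.8, 29.3 and 19.8 FPKM in Control and was lower (adjusted p = 0.000289). The activin subunits parted: Inhba was called higher (0.89, adjusted p = 0.0136, and 0.0864 without MMS D7 replicate 3) and Inhbb lower (-0.62, adjusted p = 0.005602, and 0.0703 with centred libraries).

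**Figure D4:**
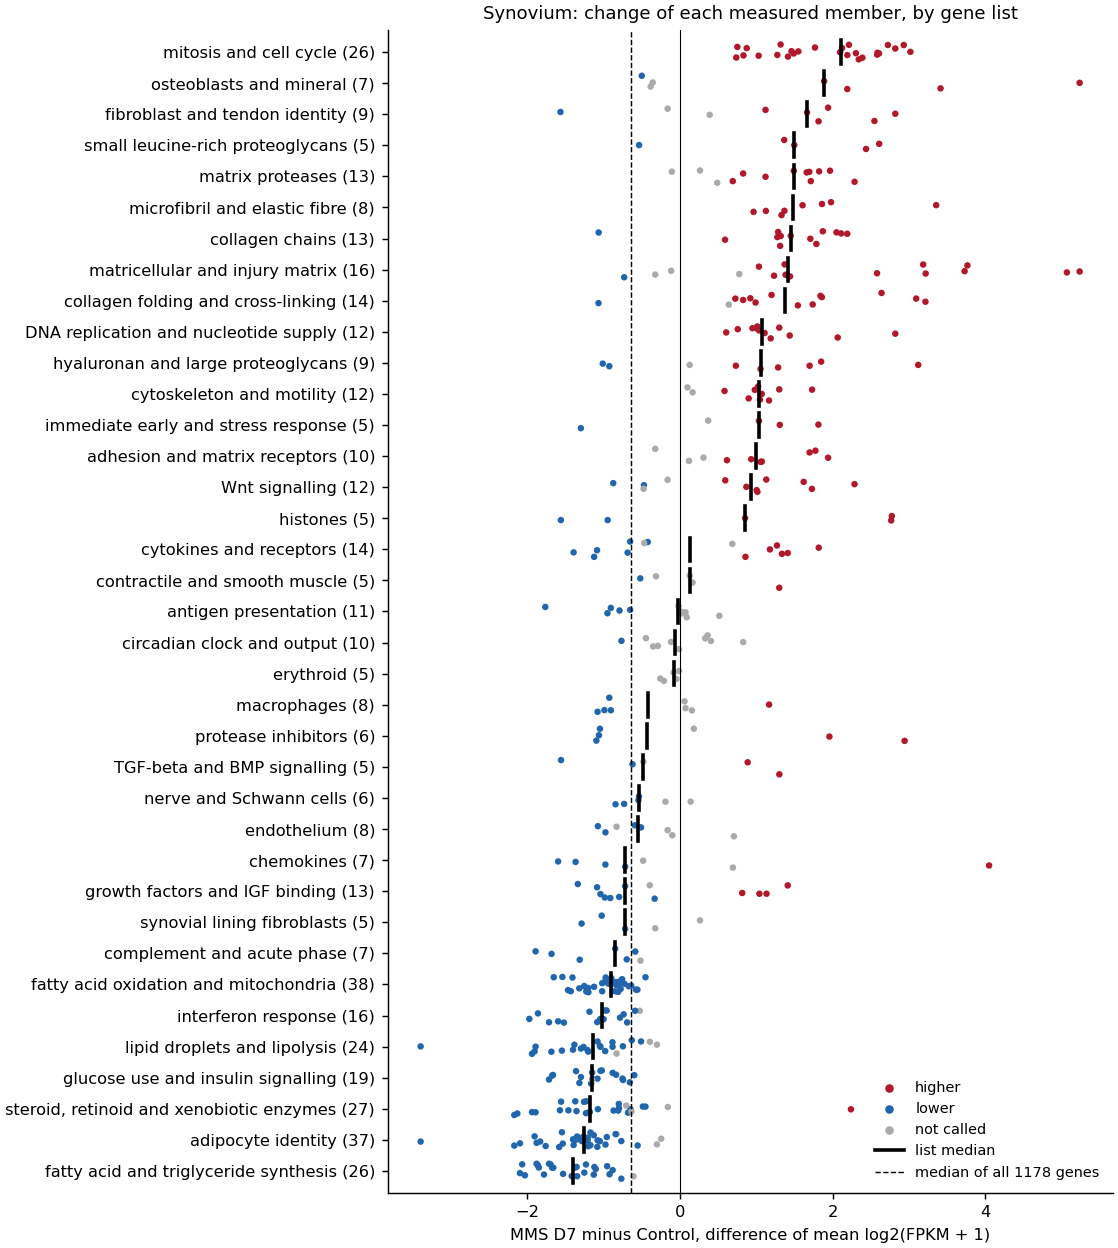
Each row is a gene list with at least 5 measured members, each point the change of 1 member in MMS D7 minus Control in log2 units, and each bar the list's median; the dashed line is the median of all genes, -0.65. Mitosis genes (median 2.11) all lie right of 0, and the genes of fatty acid oxidation (median -0.90) all lie left of it.

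Fat-cell transcripts fell broadly. Of 37 adipocyte genes measured, 34 were lower and none was higher, with a median change of -1.26 against -0.65 over all genes and 61.6% of all genes called lower. With centred libraries 32 of the 37 were called lower. Adipoq, the adipokine adiponectin, had 891, 785 and 625 FPKM in MMS D7, against 1888, 1693 and 1564 FPKM in Control. The highest MMS D7 library was below the lowest Control library (log2 change -1.17, SE 0.182; limma adjusted p = 3.17e-05). Retn, resistin (chr8:3655770-3660110, plus strand of GRCm38), had 317, 378 and 325 FPKM in MMS D7, against 1205, 1091 and 799 FPKM in Control (adjusted p = 0.000126). Pparg, a transcription factor that establishes fat cells, had 59.5, 59.1 and 51.6 FPKM in MMS D7 and 122, 102 and 142 FPKM in Control. Cebpa, its partner in that role, had 193, 193 and 149 FPKM in MMS D7 and 364, 333 and 338 FPKM in Control. Both were lower in every MMS D7 library, Pparg by 1.08 and Cebpa by 0.96 on the log2 scale. Cfd, adipsin, was the most abundant transcript of the table in MMS D7, with 7509.7, 7598 and 5329 FPKM in MMS D7, against 20232, 18036 and 12767 FPKM in Control (adjusted p = 0.000107). Fabp4, the fatty acid binding protein of fat cells and capillaries, had 3175, 3360.4 and 5119 FPKM in MMS D7 and 5849, 5718 and 9160.3 FPKM in Control; its groups did not overlap, and it was not called (log2 change -0.83, adjusted p = 0.0632). Plin4, a lipid droplet coat protein, stood at 255 ± 11.7 FPKM in MMS D7 against 318 ± 62.1 FPKM in Control (adjusted p = 0.182), and Adora1, an adenosine receptor that restrains lipolysis, at 8.24 ± 0.739 FPKM in MMS D7 against 10.3 ± 3.37 FPKM in Control (adjusted p = 0.349). Summed over the 37 genes, levels ran from 17943 to 20126 FPKM in MMS D7 and 40418 to 49298 FPKM in Control, and no marker was at 0.

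Genes of lipid synthesis, storage and release fell as well. In fatty acid and triglyceride synthesis 25 of 26 genes were lower, with a median of -1.40, beside 61.6% of all genes called lower. Pcx, pyruvate carboxylase, which makes oxaloacetate, from which the citrate for lipid synthesis is formed, had 76.8, 83.4 and 62.1 FPKM in MMS D7, against 322, 236 and 191 FPKM in Control (log2 change -1.71, adjusted p = 1.23e-05). Slc25a10, a mitochondrial dicarboxylate carrier, had 33.2, 37.4 and 26.1 FPKM in MMS D7 and 131, 100.1 and 82.9 FPKM in Control, and Insig1, a sterol-responsive regulator of lipid synthesis, had 33.4, 32.3 and 48.2 FPKM in MMS D7 and 204, 151 and 83.6 FPKM in Control. Fasn, fatty acid synthase, had 153, 176 and 249.7 FPKM in MMS D7 and 944, 606 and 400.0 FPKM in Control and was lower in each MMS D7 library (adjusted p = 0.00332). Scd1, the desaturase that makes oleate, had 1496, 1531 and 2250.2 FPKM in MMS D7 and 2537, 2326 and 3089.9 FPKM in Control and was the 1 gene of the list that was not called (adjusted p = 0.138). Of 24 genes of lipid droplets and lipolysis, 21 were lower, beside 61.6% of all genes. Cidec, which fuses lipid droplets, had 349, 349 and 235 FPKM in MMS D7 and 1097, 844 and 772 FPKM in Control. Pnpla2 and Lipe, the lipases of triglyceride breakdown, fell by 1.26 and 1.05, and Hcar1, the lactate receptor that restrains them, by 1.68. Ces1d, a carboxylesterase of lipid droplets (chr8:93166068-93197838, minus strand of GRCm38), had 132, 138 and 116 FPKM in MMS D7, against 537, 450.3 and 453 FPKM in Control (adjusted p = 7.40e-05); reads of Ces1d and its neighbour Ces1f, close copies of each other, may have been divided between them.

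All 38 genes of fatty acid oxidation, branched-chain amino acid breakdown and mitochondria were lower, beside 61.6% of all genes, and their changes were smaller than those of synthesis (median -0.90; that difference between lists was not tested). Eci1, an isomerase for unsaturated fatty acids, had 44.96, 47.9 and 38.3 FPKM in MMS D7 and 113, 95.9 and 96.6 FPKM in Control, and Cpt2, which brings acyl chains into mitochondria, averaged 32.8 ± 3.78 FPKM in MMS D7 against 66.6 ± 17.7 FPKM in Control. Bcat2, which starts the breakdown of branched-chain amino acids, had 58.3, 58.9 and 37.1 FPKM in MMS D7, against 154, 135 and 124 FPKM in Control (log2 change -1.43, adjusted p = 8.25e-06). Mccc1 and Pcca, biotin enzymes further along those routes, fell by 1.47 and 1.23. Cs, citrate synthase, and Sdha, succinate dehydrogenase, which any cell with mitochondria uses, fell by 0.76 and 0.83. With centred libraries 34 of the 38 were called lower. In glucose use and insulin signalling 18 of 19 genes were lower, among them Slc2a4, the insulin-regulated transporter GLUT4 (37.5 ± 1.82 FPKM in MMS D7 against 97.9 ± 6.78 FPKM in Control), Gys1, glycogen synthase (25.4 ± 3.66 FPKM in MMS D7 against 58.04 ± 7.14 FPKM in Control), and Pfkfb1, a regulator of glycolysis (10.8 ± 1.02 FPKM in MMS D7 against 28.5 ± 3.597 FPKM in Control). Pygm, muscle glycogen phosphorylase, was not called, with 3.61, 4.26 and 2.31 FPKM in MMS D7 and 5.66, 24.7 and 4.1 FPKM in Control; Control replicate 2 was far above the other Control libraries.

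Enzymes for steroids, retinoids and foreign compounds fell in 23 of 27 cases, beside 61.6% of all genes, and in 18 with centred libraries, which put 553 of all 1178 genes lower. Cdo1, cysteine dioxygenase, a fat and liver enzyme outside that list, was among the larger falls of the table, with 131, 149.8 and 86.1 FPKM in MMS D7, against 571, 448 and 391 FPKM in Control (log2 change -1.95, SE 0.268; adjusted p = 1.19e-05). Ephx2, soluble epoxide hydrolase, which breaks down lipid epoxides (chr14:66084374-66124500, minus strand of GRCm38), had 67.8, 64.2 and 50.6 FPKM in MMS D7, against 183, 153 and 169 FPKM in Control (adjusted p = 6.45e-06). Gstm1, a glutathione transferase, averaged 144 ± 35.2 FPKM in MMS D7 against 433 ± 138 FPKM in Control, and Aldh2, mitochondrial aldehyde dehydrogenase, averaged 169 ± 24.2 FPKM in MMS D7 against 383 ± 47.8 FPKM in Control. The 1 rise was Crabp2, a carrier that delivers retinoic acid to its nuclear receptor (chr3:87948666-87953376, plus strand of GRCm38), with 30.01, 24.2 and 29.8 FPKM in MMS D7, against 7.18, 3.88 and 4.72 FPKM in Control. Its lowest MMS D7 library was above its highest Control library (log2 change 2.24, adjusted p = 1.61e-05).

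Immune transcripts gave a divided picture, and few defining immune markers are in the table. No T cell, B cell, mast cell or epithelial marker from the lists was among the 1178 genes, so those cells were not analysed here. Of 8 macrophage genes, Ms4a7 rose, 4 fell and 3 were not called. The falls were below the 61.6% of all genes, and the list's median of -0.42 lay above the -0.65 of all genes. Ms4a7, a marker of tissue macrophages, had 18.4, 17.5 and 23.6 FPKM in MMS D7 and 7.19, 8.5 and 8.98 FPKM in Control (adjusted p = 4.71e-05). Timd4, a receptor for dying cells on long-lived resident macrophages, had 6.44, 8.35 and 2.3 FPKM in MMS D7 and 10.5, 11.8 and 11.2 FPKM in Control, and Cd209a, a lectin of macrophages and dendritic cells, had 5.38, 6.32 and 3.51 FPKM in MMS D7 and 9.9, 10.8 and 9.7 FPKM in Control. Both were lower, without overlap, as was Lyve1, which lymphatic vessels share. Gpnmb, another macrophage transcript, averaged 24.9 ± 7.54 FPKM in MMS D7 against 22.8 ± 1.36 FPKM in Control. Siglec1 averaged 4.67 ± 0.632 FPKM in MMS D7 against 4.15 ± 1.21 FPKM in Control. Clec10a averaged 22.5 ± 2.89 FPKM in MMS D7 against 21.4 ± 0.302 FPKM in Control, and none of these 3 was called. Cd36, which fell by 1.08, is a fatty acid carrier of fat cells and capillaries as well. The summed macrophage list ran from 403 to 425 FPKM in MMS D7 and 710.2 to 852 FPKM in Control, most of it Cd36. The 3 neutrophil genes were Csf3r, called higher (0.86), Il1r2, called lower (-1.12), and Prtn3, not called. Their sum, in which these opposite changes are added, ran from 23.6 to 27.96 FPKM in MMS D7 and 22.6 to 24.8 FPKM in Control, ranges that overlap.

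Chemokines and cytokine genes moved both ways. Ccl8, a monocyte attractant, was the 1 chemokine of 7 that rose, with a change of 4.05. Another 4 of the 7 fell, beside 24.1% of all genes higher and 61.6% lower. Cxcl9, an interferon-induced T cell attractant, had 4.11, 4.66 and 3.4 FPKM in MMS D7 and 12.7, 18.7 and 12.01 FPKM in Control and fell (adjusted p = 0.000126), and Ccl11, the eosinophil attractant eotaxin, had 14.1, 14.7 and 5.7 FPKM in MMS D7 and 28.7, 27.7 and 30.7 FPKM in Control and was called lower (adjusted p = 0.00376, and 0.0694 within the libraries with Gm2023 above 5 FPKM). Socs3, a feedback inhibitor of IL-6 type signals, had 58.7, 59.7 and 64.4 FPKM in MMS D7, against 15.8, 21.8 and 13.1 FPKM in Control (log2 change 1.82, adjusted p = 5.91e-05). Il33, an alarm cytokine of stromal cells, had 14.01, 16.1 and 12.2 FPKM in MMS D7 and 5.87, 5.86 and 4.11 FPKM in Control and rose (adjusted p = 5.46e-06). Tnfrsf12a, the TWEAK receptor of injured tissue, rose by 1.34. Il34, a ligand of the macrophage growth factor receptor, and Il1r2, a decoy receptor for IL-1, fell by 1.08 and 1.12. In all, 6 of 14 cytokine and receptor genes were higher and 6 were lower, beside 24.1% and 61.6% of all genes. With centred libraries 6 were higher and 3 lower, and of the 7 chemokines 2 were higher and 2 lower. Without Control replicate 3 or without MMS D7 replicate 3, 3 of the 14 were lower.

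Interferon-inducible genes were lower in 15 of 16 cases, beside 61.6% of all genes, with a median of -1.02 against -0.65 over all genes. With centred libraries 14 of the 16 were called lower. Ifi27l2a, an interferon-induced protein and the most abundant of them, had 958, 1037 and 572 FPKM in MMS D7, against 3416, 3241 and 2456 FPKM in Control; the groups were widely separated (log2 change -1.86, SE 0.234; limma adjusted p = 6.45e-06). Psmb9, a subunit of the immunoproteasome, had 23.7, 20.5 and 21.7 FPKM in MMS D7 and 39.1, 57.8 and 38.9 FPKM in Control, and Irf1, the transcription factor that interferon gamma induces, had 21.5, 22.6 and 21.3 FPKM in MMS D7 and 28.99, 48.3 and 39.9 FPKM in Control. Interferon-inducible GTPases were highest in Control replicate 2. Iigp1 had 10.8, 10.3 and 10.9 FPKM in MMS D7 and 15.2, 109 and 19.8 FPKM in Control. Igtp had 12.8, 12.3 and 9.14 FPKM in MMS D7 and 23.6, 122 and 20.8 FPKM in Control. Gbp6 had 5.81, 5.44 and 4.37 FPKM in MMS D7 and 14.3, 57.1 and 14.98 FPKM in Control. In every MMS D7 library all 3 were below every Control library. Without Control replicate 2, 15 of the 16 were called lower, and the list's median was -0.71. The library that gives Control its high GTPase values is the one with high muscle transcripts; the part of either in these results was not tested.

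Of 11 antigen presentation genes, 5 were lower and 6 were not called, beside 61.6% of all genes lower. Their median change was -0.02, against -0.65 over all genes, and they divided by class. H2-Q10, a secreted class I molecule (chr17:35470089-35474563, plus strand of GRCm38), had 28.6, 33.4 and 21.1 FPKM in MMS D7, against 90.2, 90.6 and 104 FPKM in Control (log2 change -1.76, adjusted p = 8.66e-07). H2-K1, a classical class I molecule, had 452, 442 and 359.6 FPKM in MMS D7 and 716, 704 and 739 FPKM in Control and fell by 0.79 (adjusted p = 0.000199). The class II genes did not pass the test: Cd74, the invariant chain, averaged 590.4 ± 214 FPKM in MMS D7 against 580.2 ± 145 FPKM in Control, H2-Aa averaged 309 ± 82.7 FPKM in MMS D7 against 289 ± 48.5 FPKM in Control, and H2-Ab1 averaged 237 ± 64.8 FPKM in MMS D7 against 229 ± 40.8 FPKM in Control, with overlapping libraries. H2-Q7 fell by 0.95, and reads of H2-Q7 and H2-Q10, which are near copies, may have been divided. Complement and acute phase genes fell in 6 of 7 cases, beside 61.6% of all genes, and in 4 with centred libraries: C7, a component of the membrane attack complex, had 6.54, 16.6 and 7.52 FPKM in MMS D7 and 30.3, 31.7 and 35.4 FPKM in Control (adjusted p = 0.00293), Orm1, an acute phase glycoprotein, averaged 39.9 ± 13.3 FPKM in MMS D7 against 149 ± 38.8 FPKM in Control, and C3, the central complement protein, averaged 355 ± 123 FPKM in MMS D7 against 555 ± 106 FPKM in Control with overlapping libraries (adjusted p = 0.0204, and 0.155 without MMS D7 replicate 3).

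Lining fibroblasts were represented by 5 genes, and their main marker Prg4 was not analysed here. Of the 5, 3 were lower, a share near the 61.6% of all genes. Their median change of -0.72 was also near the -0.65 of all genes. Clic5, a chloride channel protein of the lining, had 55.8, 63.01 and 34.2 FPKM in MMS D7, against 132, 135 and 102 FPKM in Control (log2 change -1.29, SE 0.196; limma adjusted p = 2.79e-05). Tspan15, a tetraspanin of lining fibroblasts, had 59.7, 54.4 and 41.99 FPKM in MMS D7 and 99.4, 118 and 101 FPKM in Control. Hbegf, a growth factor of the same cells, had 92.4, 91.4 and 112 FPKM in MMS D7 and 153, 169 and 165 FPKM in Control. Both were lower in every MMS D7 library than in any Control library. Htra4, a serine protease, had 368, 366 and 272 FPKM in MMS D7 and 215, 246 and 401 FPKM in Control, and Itga6, a laminin receptor subunit, had 23.04, 20.4 and 14.6 FPKM in MMS D7 and 19.8, 24.1 and 28.99 FPKM in Control, overlapping in each case and not called.

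Of 7 osteoblast and mineral genes, 4 were higher and 1 was lower, beside 24.1% and 61.6% of all genes. The rises include Col1a1 and Spp1, which are also on the collagen and matricellular lists. Ibsp, bone sialoprotein, which nucleates mineral (chr5:104299171-104311469, plus strand of GRCm38), had 25.4, 9.64 and 50.96 FPKM in MMS D7, against 1.53, 1.24 and 1.12 FPKM in Control. Control lay near the lowest values of the table, and every MMS D7 library was well above it (log2 change 3.42, SE 0.4197; limma adjusted p = 5.59e-06). Enpp1, which makes the mineralisation inhibitor pyrophosphate, had 26.3, 21.4 and 28.8 FPKM in MMS D7, against 5.34, 6.42 and 6.62 FPKM in Control (adjusted p = 1.16e-06). Other osteoblast genes were not called higher. Bglap, osteocalcin, averaged 12.3 ± 2.92 FPKM in MMS D7 against 15.8 ± 0.201 FPKM in Control. Bglap2, its near copy, averaged 39.05 ± 14.9 FPKM in MMS D7 against 48.8 ± 7.67 FPKM in Control, and neither was called. Alpl, alkaline phosphatase, was called lower (-0.499, adjusted p = 0.00784, and 0.233 with centred libraries). Of the chondrocyte factors, Sox9 was called higher (0.72, adjusted p = 0.00501, and 0.102 within the libraries with Gm2023 above 5 FPKM) and Sox6 lower (-0.78, adjusted p = 0.000133). The osteoclast genes parted, Ctsk higher and Acp5, tartrate-resistant acid phosphatase, lower, with 188, 182 and 128 FPKM in MMS D7 and 435, 379.9 and 294 FPKM in Control (adjusted p = 3.51e-05).

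Other tissues of the joint were read from smaller lists. Of 8 endothelial genes, 4 were lower, below the share of all genes: Kdr, the main VEGF receptor, had 12.1, 10.7 and 12.1 FPKM in MMS D7 and 22.2, 23.4 and 26 FPKM in Control (adjusted p = 2.29e-05), and the calls of Robo4, Gpihbp1 and Rbp7 were lost with centred libraries, which left 1 of the 8 called. Cldn5, the tight junction protein of endothelium, was at 48.5 ± 2.48 FPKM in MMS D7 against 52.5 ± 9.204 FPKM in Control and not called (adjusted p = 0.673). Nerve and Schwann cell genes were lower in 4 of 6 cases, near the 61.6% of all genes, with a median of -0.54 against -0.65 over all genes, led by Mbp, myelin basic protein (16.3 ± 2.47 FPKM in MMS D7 against 30.1 ± 6.05 FPKM in Control, adjusted p = 0.000818), in 1 case with centred libraries or without Control replicate 2, and in 2 without MMS D7 replicate 3; their sum ran from 43.6 to 54.1 FPKM in MMS D7 and 67.2 to 102 FPKM in Control. The red cell transcripts were not called in any of 5 cases, while 168 of all 1178 genes were not called. Hbb-bs, adult beta globin, had 1926, 932 and 929.8 FPKM in MMS D7 and 1320.5, 1182 and 1093 FPKM in Control. Summed over the 5 genes, which are globins and Alas2, a heme synthesis enzyme, levels ran from 2690.3 to 6321 FPKM in MMS D7 and 3497 to 4831 FPKM in Control, with the wider range in MMS D7. Of 4 muscle genes 1 was called lower, below the 61.6% of all genes. It was Myl1, a fast myosin light chain, with 15.6, 17.4 and 18.99 FPKM in MMS D7 and 32.4, 117 and 32.9 FPKM in Control. Without Control replicate 2, Myl1 was not called (adjusted p = 0.0678).

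Clock genes set replicate 3 apart from the other replicates. Dbp, an output factor of the circadian clock, had 70.8, 89.6 and 13.8 FPKM in MMS D7, against 18.4, 15.6 and 127 FPKM in Control. Replicates 1 and 2 were higher in MMS D7 than in Control, and replicate 3 was lower (adjusted p = 0.652). Nr1d1, the clock repressor REV-ERB alpha, had 123, 156 and 38.1 FPKM in MMS D7 and 95.8, 98.8 and 163 FPKM in Control, likewise not called. Of 10 clock genes, limma called 0 higher and 1 lower over all libraries, beside 24.1% and 61.6% of all genes. At an unadjusted p under 0.05 the count of higher genes was 0 as well. Within the libraries with Gm2023 above 5 FPKM, 6 of the 10 were called higher in MMS D7, with Nr1d1 at 0.51 (adjusted p = 0.0131), and 1 was called lower. Over all 1178 genes, that fit called 286 higher and 709 lower. It keeps only replicates 1 and 2 of MMS D7 and of Control.

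MMS D7 was then set beside MMS D3 and MMS D14, comparisons that share the MMS D7 libraries with the contrast against Control. MMS D14 and Control means were at least 1.5-fold apart in 98% of the table's genes, against 49.7% for MMS D3 and Control, so an order of the groups by distance from Control cannot be told apart from how genes entered the table. MMS D7 and MMS D3 differed in 358 genes (30.4%), 142 higher (12.1%) and 216 lower (18.3%) in MMS D7; centred libraries turned that balance to 190 higher and 112 lower. MMS D14 and MMS D7 differed in 659 genes (55.9%), 148 higher (12.6%) and 511 lower (43.4%) in MMS D14. With centred libraries the split was 203 higher and 204 lower. Single libraries moved these counts. For MMS D7 against MMS D3, 597 genes were called without MMS D3 replicate 1, 172 without MMS D3 replicate 2, 147 without MMS D3 replicate 3 and 178 without MMS D7 replicate 3. For MMS D14 against MMS D7, 389 were called without MMS D14 replicate 1, 413 without MMS D7 replicate 1 and 375 without MMS D7 replicate 2; without MMS D14 replicate 2, 95 were higher. Of the genes called in MMS D7 against Control, 1 of the 284 higher and 2 of the 726 lower were called in the other direction between MMS D14 and MMS D7.

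Collagen genes were higher in MMS D7 than in MMS D3. Mean Col1a1 was 586 FPKM in Control, 1185 in MMS D3, 2682 in MMS D7 and 4216 in MMS D14. MMS D7 exceeded MMS D3 by 1.23 (adjusted p = 0.00445). Crabp2 showed 5.26 FPKM in Control, 4.997 in MMS D3, 28.03 in MMS D7 and 38.3 in MMS D14, and Fmod 10.8 FPKM in Control, 13.9 in MMS D3, 63.1 in MMS D7 and 362 in MMS D14. Neither was called in MMS D3 against Control (adjusted p = 0.806 for Crabp2 and 0.528 for Fmod). Both were higher in MMS D7 than in MMS D3, by 2.34 and 2.23 (adjusted p = 0.000308 and 0.00531). P4ha3, Thbs4, Angptl1 and Antxr1, a receptor that binds collagen, followed at 1.86, 1.67, 1.63 and 1.54. Of 13 collagen chains, 12 were higher in MMS D7 than in MMS D3, beside 12.1% of all genes. In MMS D14, 9 were higher than in MMS D7, beside 12.6% of all genes. Without MMS D7 replicate 2, 5 were higher in MMS D14, and 6 without MMS D14 replicate 1 or without MMS D14 replicate 2. The list's median change stood at 0.50, 1.45 and 2.27 in MMS D3, MMS D7 and MMS D14, each set against Control.

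Calls of division genes between the MMS groups varied with the libraries and the fit. Their median change stood at 1.26, 2.11 and 2.27 in MMS D3, MMS D7 and MMS D14. Of the 26, 4 were called higher in MMS D7 than in MMS D3, a share near the 12.1% of all genes. In MMS D14, 2 were called higher than in MMS D7, beside 12.6% of all genes. The first count turned on single libraries. It was 20 without MMS D3 replicate 1, 0 without MMS D3 replicate 3 or without MMS D7 replicate 3, and 2 without any one of MMS D3 replicate 2, MMS D7 replicate 1 and MMS D7 replicate 2. It was 13 with a term for the low-Gm2023 libraries, 0 without those libraries, 8 with centred libraries and 12 with a replicate block. Over all 1178 genes, 219 were higher in MMS D7 without MMS D3 replicate 1 and 188 with that term. With centred libraries 190 were higher, and 183 with the block. The count for MMS D14 against MMS D7 was 16 without the low-Gm2023 libraries, 4 with centred libraries or without MMS D14 replicate 3, and 0 without any one of MMS D14 replicate 1, MMS D7 replicate 1 and MMS D7 replicate 2. Over all 1178 genes, 239 were higher in MMS D14 without the low-Gm2023 libraries. With centred libraries 203 were higher, and 143 without MMS D14 replicate 3. Cenpa averaged 2.71 FPKM in Control, 9.34 in MMS D3, 18.8 in MMS D7 and 16.1 in MMS D14. For the 12 DNA replication genes the medians were 1.18, 1.07 and 1.31, and none was called in MMS D7 against MMS D3 or in MMS D14 against MMS D7.

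Adipocyte genes were lower in each later group, with medians of -0.57, -1.26 and -2.38 in MMS D3, MMS D7 and MMS D14. In MMS D7, 17 of 37 were lower than in MMS D3, beside 18.3% of all genes. In MMS D14, 34 of 37 were lower than in MMS D7, beside 43.4% of all genes. The count of 17 was 8 without MMS D3 replicate 2 or without MMS D7 replicate 3, and 10 without MMS D3 replicate 3. It was 5 with only the 2 groups compared, 11 without the low-Gm2023 libraries and 24 without MMS D3 replicate 1. Retn averaged 1032 FPKM in Control, 767 in MMS D3, 340.1 in MMS D7 and 123 in MMS D14, with a change from MMS D3 of -1.12 (adjusted p = 0.0107). Klf15, a transcription factor of fasting metabolism and fat, averaged 26.3 FPKM in Control, 24.9 in MMS D3, 10.2 in MMS D7 and 4.16 in MMS D14, and C7 averaged 32.4 FPKM in Control, 25.8 in MMS D3, 10.2 in MMS D7 and 4.95 in MMS D14. Both were lower in MMS D7 than in MMS D3 (adjusted p = 0.00232 and 0.0394).

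Of the 5 lining fibroblast genes, 3 were higher in MMS D7 than in MMS D3, beside 12.1% of all genes. That count was 2 with only the 2 groups compared. It was also 2 without MMS D3 replicate 2 or 3, or without MMS D7 replicate 1 or 2. Clic5 averaged 123 FPKM in Control, 20.7 in MMS D3, 51.01 in MMS D7 and 43.6 in MMS D14. It was lowest in MMS D3 and higher in MMS D7, by 1.22 (adjusted p = 0.000686). Tspan15 and Hbegf were also higher in MMS D7 than in MMS D3, by 0.58 (adjusted p = 0.0263) and 1.05 (adjusted p = 0.000571). The list's median change against Control was -1.60, -0.72 and -0.68 in MMS D3, MMS D7 and MMS D14. Between MMS D14 and MMS D7, 0 of the 5 were called with all libraries. Lower calls in MMS D14 numbered 4 without the low-Gm2023 libraries and 3 without MMS D7 replicate 3, beside 694 and 545 of all 1178 genes. Summed over the 5 genes, levels ran from 475 to 599 FPKM in MMS D7 and 339 to 435 FPKM in MMS D14. Endou, an RNA-cutting enzyme, was the 1 gene higher in MMS D7 than in Control that fell in MMS D14, with 3.16 FPKM in Control, 11.2 in MMS D3, 5.88 in MMS D7 and 2.61 in MMS D14. Myl1 and Ldb3, a Z-disc protein of muscle, were the 2 lower genes that rose in MMS D14, by 1.53 and 1.77, and neither was called lower in MMS D7 without Control replicate 2.

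**Figure D5:**
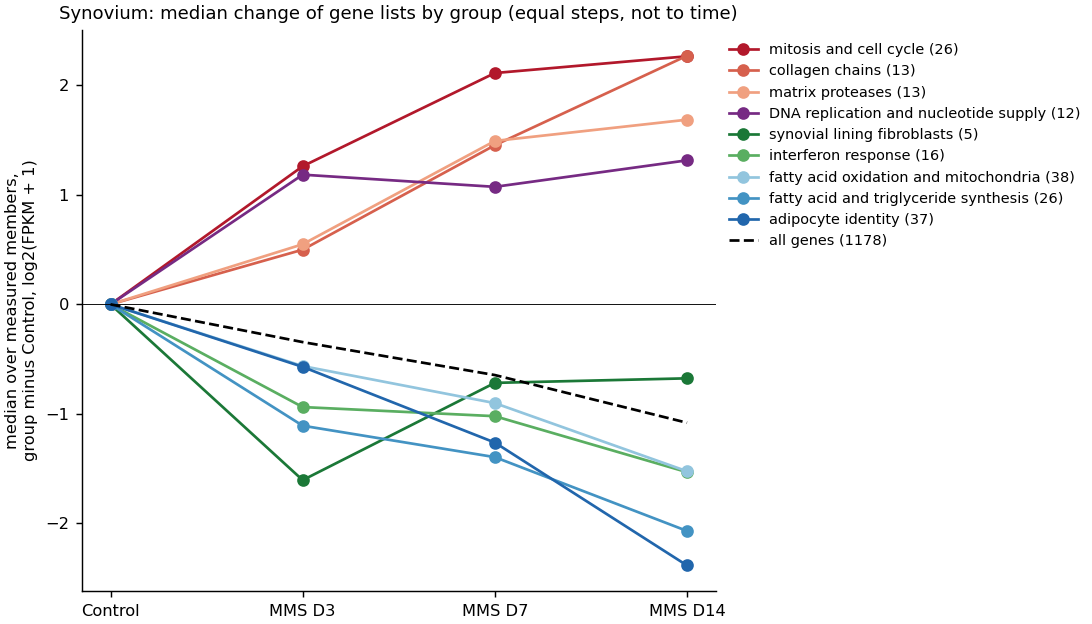
The horizontal axis gives the groups in the order Control, MMS D3, MMS D7 and MMS D14, and the vertical axis the median change of each gene list against Control, in log2 units, with Control at 0. Collagen chains stand at 0.50, 1.45 and 2.27 in the 3 MMS groups, mitosis genes at 1.26, 2.11 and 2.27, and adipocyte genes at -0.57, -1.26 and -2.38.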

How the data were processed

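RNA of mouse synovium was extracted with Trizol and sequenced from BGI libraries, per the labels' protocols. HISAT2 and mm10 are named in the submitters' processing notes; counting, annotation and the choice of genes are not given in the sources used here. The authors deposited FPKM values per the file headers, for 1178 genes and 18 libraries. FPKM are not counts, so depth and counting error are unknown, and FPKM shares between libraries shift when a few abundant transcripts change. The authors' cartilage table was not used here.

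From the deposited FPKM, log2(FPKM + 1) was tested with limma 3.58.1 in R 4.3.3, with a mean-dependent prior, all 6 synovium groups of 3 in 1 fit, Benjamini-Hochberg adjustment over 1178 genes and adjusted p under 0.05. A filter of at least 1 FPKM in 3 libraries removed no gene. Alternatives were a pseudocount of 0.1, no filter, no prior trend, libraries centred on their medians, a replicate block, only the 2 groups, each library left out, and, added after seeing the data, a term for, or removal of, the 5 libraries with Gm2023 under 5 FPKM.

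Named genes were the 15 largest rises and falls with groups apart and above-median level, up to 4 per list by adjusted p, any other list member for its value, the 8 largest changes against MMS D3 in each direction, genes that turned in MMS D14, and the 10 highest in MMS D7. Members and lists were chosen with earlier results of these data known, and lists share genes. Gene positions are from GENCODE vM21 and promoters from RefSeq, both on GRCm38, the assembly that mm10 names; of 26 mitosis genes, 22 had a promoter entry that was read. In all, 12 motifs were searched. A few genes that these rules name are not reported here.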

Additional observations from a re-analysis of the deposited data

Results flagged for a closer look

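The genes below were named by size of change or by level. For MMS D7 and MMS D3, they are those whose change against Control differed by the limma test of that difference (adjusted p under 0.05). Between MMS D14 and MMS D7, only genes called in the direction opposite to their call in MMS D7 against Control are listed. Genes that moved further from Control in MMS D14 are left out, and 659 of all 1178 genes (55.9%) were called in that comparison. Because the Control libraries are the same in both changes, the difference equals MMS D7 minus MMS D3 or MMS D14 minus MMS D7 in log2(FPKM + 1).

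Higher in MMS D7 than in MMS D3 were Cthrc1 (2.83), Crabp2 (2.34), Fmod (2.23), Tnc (1.91), P4ha3 (1.86), Thbs4 (1.67), Angptl1 (1.63), Antxr1 (1.54), Postn (1.32), Col1a1 (1.23), Col3a1 (1.15), Mfap4 (1.14) and Col1a2 (0.997). Lower in MMS D7 than in MMS D3 were Cyp2e1 (-1.49), C7 (-1.32), Retsat (-1.24), Klf15 (-1.24), Ifi27l2a (-1.14), Ccl11 (-1.13), Retn (-1.12), Fam13a (-1.11), Ces1d (-1.09), Cdo1 (-1.04), Gsn (-0.83), Endou (-0.76), Car3 (-0.701) and Dgat2 (-0.62). Between MMS D14 and MMS D7, Endou changed by -0.98, while Ldb3 (1.77) and Myl1 (1.53), both muscle genes, were higher.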

How the results depend on the processing

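Settings were changed 1 at a time. The count of genes called in MMS D7 against Control held within 1.5 times of 1010 (284 higher, 726 lower) under every setting other than a log2 change of at least 1 (474 called, 277 lower); leaving out 1 library gave 931 to 987 called, 262 to 280 higher and 664 to 708 lower. MMS D7 against MMS D3 moved more: only the 2 groups 116 called (73 higher, 43 lower), a change of at least 1 on the log2 scale 69 (47 and 22), without the libraries with Gm2023 under 5 FPKM 186 (88 and 98), centred libraries 112 lower, a term for those libraries 330 lower, and 1 library left out 147 to 597 called, 73 to 219 higher and 70 to 378 lower. The extremes came from leaving out MMS D3 replicates 3 (147) and 1 (597). MMS D14 against MMS D7 gave 407 called and 204 lower with centred libraries, 118 called (32 higher, 86 lower) at a change of at least 1, 239 higher without the low-Gm2023 libraries, and 375 to 701 called, 80 to 156 higher and 278 to 545 lower with 1 library left out. The causes were not tested.

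Same-numbered libraries did not all deviate together: correlations were 0.0322, 0.0262 and 0.072 between MMS D7 and Control, -0.0692, 0.428 and 0.081 between MMS D7 and MMS D3, and -0.00409, 0.227 and 0.257 between MMS D14 and MMS D7. Replicate 3 marks the low-Gm2023 libraries in all 4 of these groups. With a replicate block the counts were 1029 called (284 higher, 745 lower) in MMS D7 against Control, 483 (183 and 300) in MMS D7 against MMS D3, and 776 (177 and 599) in MMS D14 against MMS D7; 3 pairs in each case.

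Of 254 named genes, 186 kept direction and side of the threshold under all 14 alternatives, and 30 lost a call under at least 1; the rest gained a call or changed sign. The 25 that changed sign, none called with all libraries, had log2 changes of Actg2 0.13, Adamts5 -0.11, Adora1 -0.24, Alas2 -0.046, Bglap2 -0.38, Cd74 -0.018, Cldn5 -0.099, Clec10a 0.061, Cytl1 -0.26, Dbp 0.41, Gpnmb 0.074, H2-Aa 0.075, H2-Ab1 0.022, Has2 0.13, Hba-a1 -0.21, Hba-a2 -0.26, Hbb-bs -0.011, Hbb-bt -0.082, Ifitm6 -0.19, Nfil3 0.83, Nr1d1 -0.35, Nr1d2 -0.011, Per3 -0.12, Sfrp4 -0.16 and Tpm1 0.17. Values of the other sign were, with centred libraries, Adamts5 0.17, Adora1 0.036, Alas2 0.23, Cd74 0.26, Cldn5 0.18, Cytl1 0.016, Hba-a1 0.070, Hba-a2 0.024, Hbb-bs 0.27, Hbb-bt 0.198, Ifitm6 0.092, Nr1d2 0.27, Per3 0.16 and Sfrp4 0.12, and, without the low-Gm2023 libraries, Adamts5 0.12, Adora1 0.043, Alas2 0.22, Bglap2 0.045, Cd74 0.11, Clec10a -0.022, Has2 -0.021, Hbb-bs 0.101, Hbb-bt 0.036, Nfil3 -0.053, Nr1d1 0.51, Nr1d2 0.94, Per3 0.68 and Tpm1 -0.085. With 1 library left out, Actg2 -0.022 to 0.303, Adamts5 -0.28 to 0.16, Alas2 -0.34 to 0.11, Cd74 -0.24 to 0.33, Clec10a -0.015 to 0.16, Dbp -0.12 to 1.35, Gpnmb -0.071 to 0.35, H2-Aa -0.076 to 0.32, H2-Ab1 -0.13 to 0.27, Hba-a1 -0.57 to 0.0037, Hba-a2 -0.700 to 0.11, Hbb-bs -0.36 to 0.17, Hbb-bt -0.47 to 0.19, Nr1d1 -0.74 to 0.26, Nr1d2 -0.36 to 0.59 and Per3 -0.402 to 0.396. Depth was unknown, so no detection limit per gene was set.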

Other observations

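Stress and early response genes gave a short list of 5, with 3 called higher and 1 lower in MMS D7 than in Control, beside 24.1% and 61.6% of all genes; within the libraries with Gm2023 above 5 FPKM 1 was called higher. Hmox1, heme oxygenase 1, which breaks down heme, had 86.3, 68.7 and 177 FPKM in MMS D7, against 28.7, 31.6 and 24.7 FPKM in Control, with no overlap (log2 change 1.81, limma adjusted p = 0.00037). Zbtb16, a glucocorticoid-responsive transcription factor, had 5.19, 5.76 and 2.43 FPKM in MMS D7, against 9.48, 11.7 and 15.04 FPKM in Control (adjusted p = 0.00115). Fos, an immediate early gene, had 74.6, 37.9 and 148 FPKM in MMS D7, against 19.2, 49.01 and 27.5 FPKM in Control; the groups overlapped, and the call (adjusted p = 0.0386) was not made within the libraries with Gm2023 above 5 FPKM (adjusted p = 0.264). Outside that list, Kdelr3, a receptor that returns proteins to the endoplasmic reticulum, had 68.8, 65.7 and 69.97 FPKM in MMS D7, against 24.7, 28.2 and 20.96 FPKM in Control (adjusted p = 3.39e-05).

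Among pain and prostaglandin signals, Ntf3, neurotrophin 3, was called lower at -0.59 (adjusted p = 0.00872, and 0.105 with centred libraries). Ltc4s, which makes leukotriene C4, averaged 111 ± 30.03 FPKM in MMS D7, against 147 ± 59.8 FPKM in Control (SD, n = 3 each; limma adjusted p = 0.341).

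Within MMS D7, 78 genes (6.62%) differed by more than 2-fold between the highest and the lowest library on the log2(FPKM + 1) scale, and in 64 of them replicate 3 was the library farthest from the other two. Within Control the same was so of 59 genes (5.01%), with replicate 3 farthest in 41.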
